A study of Mus musculus with 9 samples.

Results

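The p53 target genes and the Cdkn2 locus were examined in 3 lines of mouse fibroblasts. The members are the probesets whose only gene symbol in the array annotation is 1 of 31 listed genes. The rule uses gene names and no measured value, but the list of genes was drawn up with earlier results of these data known. Probesets were found for 29 of the 31 genes, 56 of the 45037 probesets tested. Gdf15, which encodes a stress-induced secreted factor, and Fdxr, which encodes a mitochondrial reductase, had none, and 17 of the 29 genes had several. RNA of unmodified Balb/c-3T3 cells (control), of Balb/c-3T3 cells stably transfected with pMvSrc, which encodes the oncogenic tyrosine kinase v-Src, and of Balb/c-3T3 cells stably transfected with pRc/CMV-STAT3C, which encodes the constitutively active STAT3-C, was hybridized to Affymetrix mouse arrays. Each line has 3 arrays, from 3 passages with 5 dishes pooled at each. The control cells carried no vector, so the transgene cannot be told apart from transfection and selection, and each transfected line is 1 line whose clonal origin the sources used here do not give. P-values therefore measure the spread between passages of a line.

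p53 is a transcription factor that is held at a low level by Mdm2, a ubiquitin ligase that is itself a p53 target, and by the related protein Mdm4. DNA damage or oncogene signals free p53 from this control, and its targets then arrest the cell cycle, repair DNA, limit oxidative stress or start apoptosis. The Cdkn2a gene encodes both p19Arf, which binds Mdm2 and so stabilizes p53, and p16Ink4a, which blocks the cyclin D kinases, as does p15Ink4b from the neighbouring Cdkn2b. Established 3T3 lines often carry a lesion in p53 or Arf.

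The promoters of the members were searched for the sequence unit that occurs as a pair in a p53 response element, here the p53 decamer, and for the STAT motif TTCNNNGAA, on both strands. Windows of 250 bases before a transcription start were taken from RefSeq (GRCm38.p6, the C57BL/6J genome and not that of BALB/c), which had 34 windows for 24 of the 31 genes. The p53 decamer occurred in 8 of the 34 windows (23.5%), each of another gene, against 7.13% of 32851 windows of all genes. The STAT motif occurred in 1 window (2.94%), against 7.02% of all. A pair of p53 decamers at most 13 bases apart occurred in 1 window, that of Cdkn1a, and in 0.0639% of all windows. The windows below were chosen among those with a match, and the matching windows of Gadd45a, Polk, Ei24 and Aen are not shown. Capitals mark the p53 decamer for the first 4 genes and the STAT motif for Fas. The printed windows are written 5′ to 3′ on the strand of the gene and end at the base before the start. They lie at chr17:29090729-29090978 (plus strand), chr10:117710759-117711008 (minus strand), chr11:40755287-40755536 (minus strand), chr10:41887189-41887438 (plus strand) and chr19:34290409-34290658 (plus strand). The window of Cdkn1a precedes the upstream of its 2 annotated starts, and that of Sesn1 the downstream of its 2. The other window of each of these genes had no p53 decamer. A match is a description of the letters and not a measured binding site.
Cdkn1a: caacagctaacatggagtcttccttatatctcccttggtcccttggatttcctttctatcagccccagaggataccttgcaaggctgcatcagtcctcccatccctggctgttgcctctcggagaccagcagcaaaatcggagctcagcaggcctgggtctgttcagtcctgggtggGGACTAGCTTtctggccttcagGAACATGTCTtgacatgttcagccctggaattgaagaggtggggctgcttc
Mdm2: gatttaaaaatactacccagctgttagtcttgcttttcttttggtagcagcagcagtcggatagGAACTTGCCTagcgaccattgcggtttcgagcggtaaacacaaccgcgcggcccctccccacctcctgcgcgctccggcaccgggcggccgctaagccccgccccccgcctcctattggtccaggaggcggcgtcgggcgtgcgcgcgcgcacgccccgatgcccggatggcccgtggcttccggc
Ccng1: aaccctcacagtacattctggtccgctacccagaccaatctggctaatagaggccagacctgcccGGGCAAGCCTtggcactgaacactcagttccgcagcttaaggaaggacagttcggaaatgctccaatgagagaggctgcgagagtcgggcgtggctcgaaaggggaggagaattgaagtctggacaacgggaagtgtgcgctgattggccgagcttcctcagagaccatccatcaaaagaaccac
Sesn1: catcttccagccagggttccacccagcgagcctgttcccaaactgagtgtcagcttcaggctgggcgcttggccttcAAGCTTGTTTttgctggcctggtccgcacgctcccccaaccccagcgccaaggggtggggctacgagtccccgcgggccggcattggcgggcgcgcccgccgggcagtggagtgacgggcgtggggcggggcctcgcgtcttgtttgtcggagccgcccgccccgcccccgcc
Fas: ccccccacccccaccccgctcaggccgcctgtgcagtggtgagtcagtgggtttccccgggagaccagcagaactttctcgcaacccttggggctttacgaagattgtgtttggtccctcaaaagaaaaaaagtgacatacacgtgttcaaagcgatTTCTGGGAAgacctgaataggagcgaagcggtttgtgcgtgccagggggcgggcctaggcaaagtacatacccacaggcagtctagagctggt

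Values are RMA expression on the log2 scale, made by the authors. To pass the test, a probeset needed an adjusted p under 0.05 from limma (Benjamini-Hochberg over all probesets) and a fold of at least 1.5. Arrays of a line correlated at 0.990 to 0.995, and the lower quartile of an array lay between 5.07 and 5.16, the range near background. The fibroblast label was checked against 10 markers, all above the array median in control cells. Of these, 6 were lower and 1 was higher with v-Src and 7 were lower with STAT3-C, and their mean level per array was 11.85 to 12.05 in control, 9.92 to 10.4 in v-Src and 10.2 to 10.3 in STAT3-C cells. The epithelial, endothelial, and macrophage and leukocyte markers showed no call against control cells, except 1 macrophage and leukocyte marker that was higher with STAT3-C, and Cdh1, Pecam1, Tek, Ptprc and Itgam lay below the lower quartile in all lines. Not all of these markers were low. In each line 3 of 6 epithelial, 1 of 4 endothelial and 3 of 6 macrophage and leukocyte markers lay above the array median. Epcam lay at a mean of 9.37 in control, 9.71 in v-Src and 9.05 in STAT3-C cells, and v-Src cells exceeded STAT3-C cells by 0.66, past the test. The part of the marker changes in the results was not tested.

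The members, p53 targets and Cdkn2 genes together, did not move in 1 direction. Each gene was represented by its brightest probeset, by the mean of the 9 arrays. With v-Src, 5 of the 29 genes were higher (17.2%) and 6 lower (20.7%) against control, beside 9.54% higher and 10.4% lower among 18193 genes. With STAT3-C, 5 were higher (17.2%) and 8 lower (27.6%), against 11.9% and 10.3% of all genes. The median log2 fold change of the members was -0.02 with v-Src and 0.04 with STAT3-C, and that of all genes 0.02 and 0.04. Cdkn1a and Perp were higher in both lines, and Sesn1, Phlda3, Apaf1, Cdkn2b and Ercc5 were lower in both. Mdm2, Sesn2 and Plk3 passed as higher and Fas as lower with v-Src only. Ccng1, Zmat3 and Ddb2 passed as higher and Polk, Xpc and Cdkn2a as lower with STAT3-C only, and 12 genes passed in neither. A gene that passed in only 1 line need not be unchanged in the other. Mdm2 also passed with STAT3-C at 1427718_a_at (0.97), and Ccng1 with v-Src at 1450016_at and 1450017_at (0.88 and 0.77). Zmat3 and Polk did not differ past the test between the lines (-0.27 and 0.44, v-Src minus STAT3-C). Both comparisons share the 3 control arrays. In RNA of whole cultures, fewer cells that express a gene and less RNA per cell cannot be told apart.

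**Figure D1:**
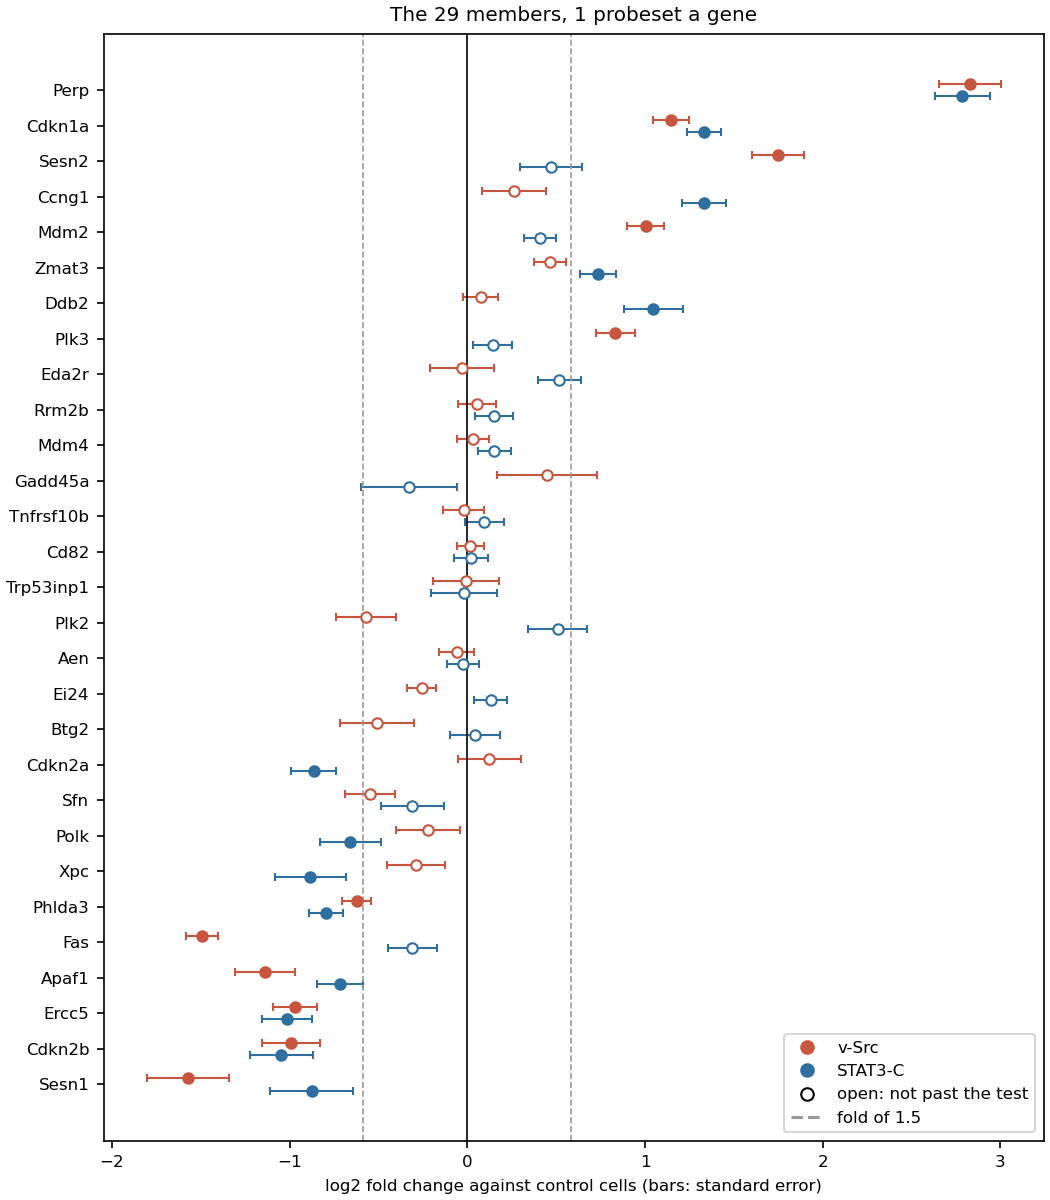
Log2 fold change against control cells (horizontal axis) of the 29 measured members (vertical axis, ordered by the mean of both lines) with v-Src (red) and STAT3-C (blue), 1 probeset a gene, with standard errors from limma over 3 arrays a line. Filled points passed the test (5 higher and 6 lower with v-Src, 5 higher and 8 lower with STAT3-C), open points did not, and dashed lines mark a fold of 1.5.

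Among the genes of cell cycle arrest, Cdkn1a was raised in both lines. It encodes p21, the inhibitor of cyclin-dependent kinases through which p53 arrests the cell cycle. At probeset 1424638_at the control arrays lay at 10.27, 10.41 and 10.32, the v-Src arrays at 11.47, 11.31 and 11.65 and the STAT3-C arrays at 11.71, 11.74 and 11.55. Every array of both transfected lines lay above the control arrays, while the v-Src and STAT3-C arrays overlapped (difference -0.19, standard error 0.11, adjusted p = 0.264). The rise with v-Src was 1.14 (log2, standard error 0.10, adjusted p = 0.000267) and that with STAT3-C 1.33 (standard error 0.09, adjusted p = 3.87e-05). At the second probeset, 1421679_a_at, the log2 fold change was 1.57 for v-Src (standard error 0.12, adjusted p = 0.000161), and for STAT3-C it was 1.41 (standard error 0.15, adjusted p = 0.000259). Both probesets of Cdkn1a thus passed in both lines.

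Ccng1, which encodes cyclin G1, a partner of phosphatase 2A in the regulation of Mdm2, was raised with STAT3-C. At 1420827_a_at it lay at 12.40, 12.43 and 12.26 in STAT3-C cells, at 11.14, 10.79 and 11.18 in control cells and at 10.93, 11.49 and 11.49 in v-Src cells. The STAT3-C arrays lay above all others, with a log2 fold change of 1.33 against control (standard error 0.12, adjusted p = 0.000146), and the log2 difference of v-Src from STAT3-C cells was -1.07 (standard error 0.16, adjusted p = 0.00411). The other probesets, 1450016_at and 1450017_at, also rose with STAT3-C (1.01 and 0.92), but with v-Src they had 0.88 (adjusted p = 0.0461) and 0.77 (adjusted p = 0.0469), and they did not differ past the test between the lines (-0.12 and -0.15). Leaving out v-Src replicate 5 or 6 or control replicate 1 or 2, the v-Src changes did not pass (0.78, 0.72, 0.84 and 0.72 at 1450016_at and 0.68, 0.62, 0.80 and 0.62 at 1450017_at), nor did 1450017_at without control replicate 3 (0.90). The difference between the lines therefore rests on 1 of 3 probesets of Ccng1, and on the mean of the 3 it was -0.45 and did not pass.

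The polo-like kinases, which act in the stress response and at the centrosome, differed between the lines. Plk3 lay at 7.63, 7.34 and 7.43 in v-Src cells, at 6.76, 6.48 and 6.67 in control cells and at 6.90, 6.73 and 6.70 in STAT3-C cells. The v-Src arrays lay above the rest (0.83 against control, standard error 0.11, adjusted p = 0.00141, and 0.69 against STAT3-C, standard error 0.10, adjusted p = 0.00411). Plk2 at 1427005_at lay at 10.98, 10.80 and 10.37 in control cells, at 10.02, 10.35 and 10.06 in v-Src cells and at 11.12, 11.13 and 11.42 in STAT3-C cells. It passed in neither line against control (-0.57 and 0.51), although it was lower with v-Src without v-Src replicate 5 (-0.67) or control replicate 3 (-0.74) and higher with STAT3-C without control replicate 1 (0.64). Between the lines it was lower with v-Src (-1.08, standard error 0.13, adjusted p = 0.00173). The other Plk2 probeset, 1443780_at, went the other way: v-Src cells exceeded STAT3-C cells by 0.80 (standard error 0.10, adjusted p = 0.0022), and the mean of both probesets had -0.14 and did not pass. Against control it had 0.26 and -0.54, the latter past the test without control replicate 3 (-0.75).

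Gadd45a, which encodes an arrest protein that is induced by DNA damage, varied among the control arrays, from 8.34 to 9.42, and passed in neither line against control (0.45 and -0.33). It was higher in v-Src cells (9.05, 9.69 and 9.39) than in STAT3-C cells (8.77, 8.79 and 8.23) by 0.78 (standard error 0.20, adjusted p = 0.0344). The call was lost without v-Src replicate 5 (0.62) or 6 (0.77) or without STAT3-C replicate 1 (0.86), 2 (0.87) or 3 (0.59). It was also lost with all 9 arrays in 1 fit (adjusted p = 0.069). Btg2, an antiproliferative p53 target, had -0.51 and 0.04 at 1416250_at and -0.04 and 0.15 at 1448272_at, and Sfn, which encodes 14-3-3 sigma of the G2 checkpoint, had -0.55 and -0.31, none past the test. Sfn passed as lower with v-Src without v-Src replicate 6 (-0.63) or control replicate 1 (-0.62) or 2 (-0.62).

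**Figure D2:**
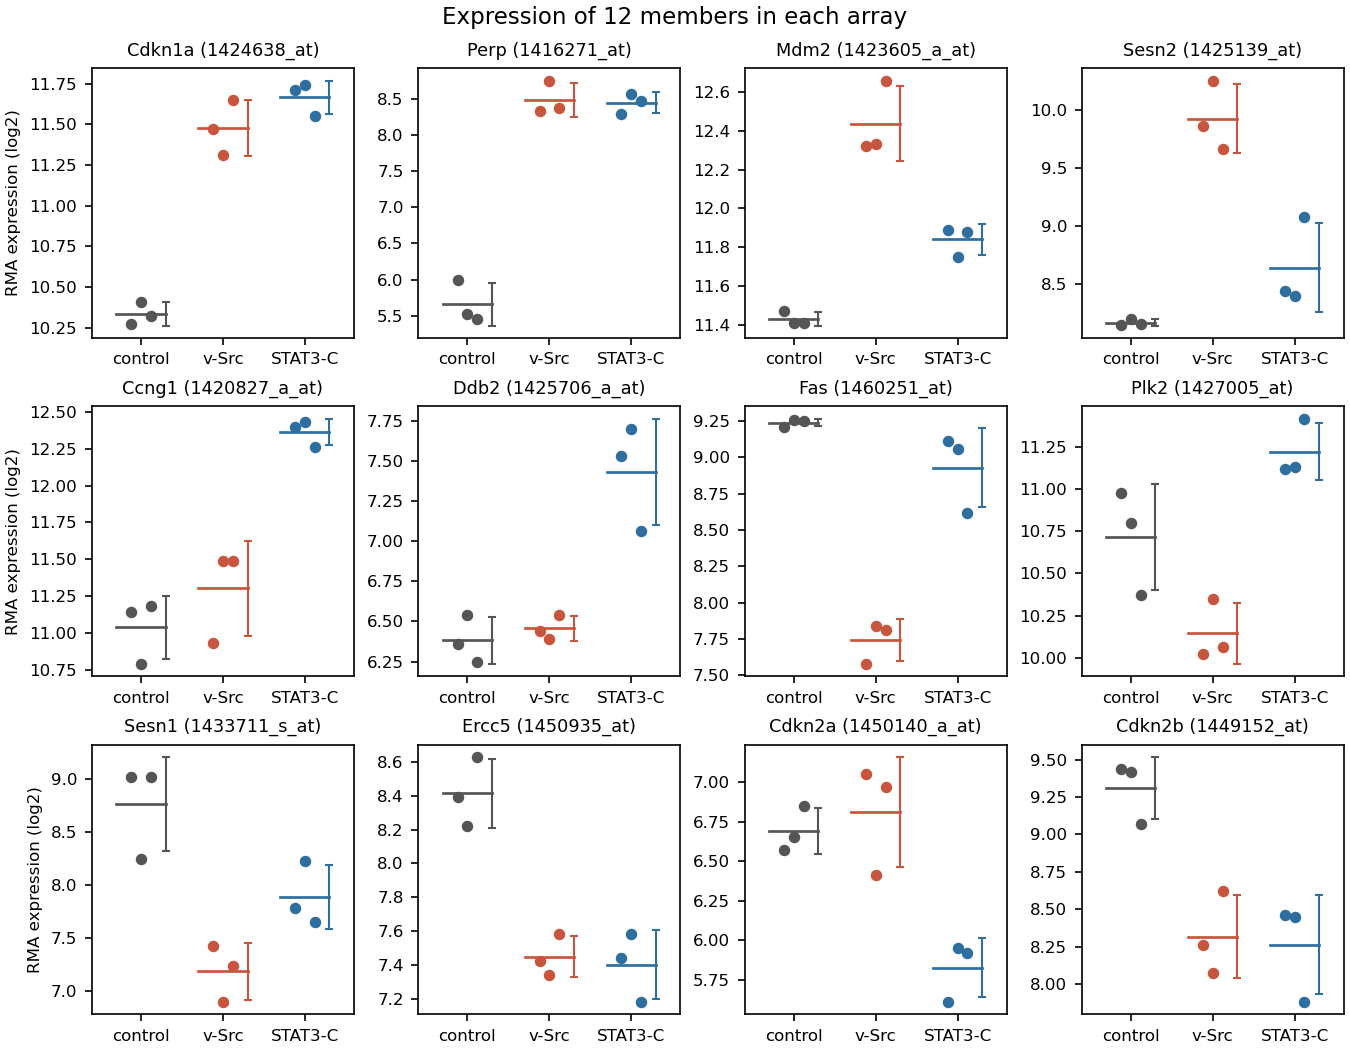
RMA expression (vertical axes, log2, each panel on its own scale) of 12 members in the control (grey), v-Src (red) and STAT3-C (blue) arrays (horizontal axis), with 1 point an array, a line at the mean of 3 arrays and a bar for 1 SD. All v-Src and STAT3-C arrays of Cdkn1a and Perp lie above the control arrays, those of Ercc5 and Cdkn2b lie below them, the v-Src arrays of Fas lie below all others and the STAT3-C arrays of Ccng1 lie above all others.

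Of the inhibitors of p53, Mdm2 was raised with v-Src at each of its 3 probesets. At 1423605_a_at it lay at 11.47, 11.41 and 11.41 in control cells, at 12.32, 12.33 and 12.66 in v-Src cells and at 11.89, 11.75 and 11.88 in STAT3-C cells. The 3 lines did not overlap, with STAT3-C cells between the others. The log2 fold change was 1.00 with v-Src (standard error 0.11, adjusted p = 0.000547) and 0.41 with STAT3-C (standard error 0.09, adjusted p = 0.00903), the latter under the fold threshold. At 1427718_a_at Mdm2 rose in both lines, by 1.54 (standard error 0.16) and 0.97 (standard error 0.14), and at 1457929_at, close to background, it had 0.61 and 0.15, of which the first passed; it did not without v-Src replicate 1 (0.58) or 6 (0.58) or control replicate 3 (0.53). In the direct comparison 1423605_a_at was higher in v-Src cells by 0.59 (standard error 0.11, adjusted p = 0.00963), at the edge of the fold threshold: without v-Src replicate 6 it was 0.48 and without STAT3-C replicate 2 it was 0.55, both under it. The probesets 1427718_a_at and 1457929_at had 0.57 (adjusted p = 0.0233) and 0.46 (adjusted p = 0.00854), also under it. The first of these passed without v-Src replicate 1 (0.67) or STAT3-C replicate 3 (0.65). On the mean of all Mdm2 probesets the direct difference was 0.54 and did not pass.

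Mdm4 passed in neither line at 3 of its 4 probesets. At 1453982_at it had 0.03 with v-Src and 0.15 with STAT3-C, and levels of 7.13 to 7.49 in all arrays. At 1460542_s_at it fell from 7.25, 6.79 and 7.13 in control cells to 6.34, 6.04 and 6.40 with v-Src (-0.80, standard error 0.15, adjusted p = 0.00635) and to 6.08, 6.01 and 5.85 with STAT3-C (-1.08, standard error 0.13, adjusted p = 0.00061). The suffix s marks a probeset whose probes match several transcripts, which can be of related genes.

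Among the genes of apoptosis, Perp had the largest change of all 29 members in both lines. It encodes a membrane protein of desmosomes that p53 induces during apoptosis. It lay at 5.99, 5.53 and 5.45 in control cells, at 8.33, 8.75 and 8.37 in v-Src cells and at 8.29, 8.57 and 8.47 in STAT3-C cells. The transfected lines lay far above the control arrays and overlapped each other. This was a 7.11-fold rise with v-Src (log2 2.83, standard error 0.17, adjusted p = 5.77e-05) and a 6.90-fold rise with STAT3-C (log2 2.79, standard error 0.16, adjusted p = 1.24e-05), and the lines differed by 0.04 (standard error 0.13, adjusted p = 0.856). The control level is within 1 log2 unit of the lower quartile of the arrays.

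Fas, which encodes the death receptor of Fas ligand, was lower in v-Src cells alone. It lay at 9.21, 9.26 and 9.25 in control cells, at 7.58, 7.84 and 7.81 in v-Src cells and at 9.11, 9.06 and 8.62 in STAT3-C cells. It fell by 1.49 with v-Src (standard error 0.09, adjusted p = 5.43e-05) and had -0.31 with STAT3-C (standard error 0.14, adjusted p = 0.132). The v-Src arrays also lay below those of STAT3-C (-1.18, standard error 0.15, adjusted p = 0.00218), so the difference between the lines passed its own test. Among the 24 members with a promoter window, Fas alone had the STAT motif, in the window printed above, as did 7.02% of all windows. Any part of this motif in the fall with v-Src was not tested. The other death receptors passed in no comparison at the probeset that stood for them: Tnfrsf10b, the mouse TRAIL receptor, had -0.02 and 0.10, and Eda2r, the receptor of ectodysplasin A2, had -0.03 and 0.52, the latter with adjusted p = 0.0123 but under the fold threshold. A second Tnfrsf10b probeset, 1421296_at, had 0.41 and 0.55, under it too, and passed with STAT3-C without control replicate 3 (0.66) or STAT3-C replicate 2 (0.61). Without v-Src replicate 6, Eda2r passed as lower with v-Src between the lines (-0.73).

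Apaf1, the core of the apoptosome that activates caspase-9, was lower in both lines. At 1452870_at it lay at 8.48, 8.36 and 8.70 in control cells, at 7.56, 7.02 and 7.55 in v-Src cells and at 7.70, 8.0 and 7.68 in STAT3-C cells, with changes of -1.14 (standard error 0.17, adjusted p = 0.00232) and -0.72 (standard error 0.13, adjusted p = 0.0039). Its other probeset, 1450223_at, had -0.45 and -0.58 and passed in neither line. With STAT3-C it did pass without control replicate 1 (-0.59) or 2 (-0.71) or STAT3-C replicate 2 (-0.64). It also passed with STAT3-C after quantile normalization again (-0.59) or median centring (-0.63). Phlda3, which restrains Akt at the membrane, lay at 11.20, 11.23 and 11.04 in control cells, at 10.45, 10.56 and 10.59 in v-Src cells and at 10.41, 10.41 and 10.26 in STAT3-C cells. The log2 fold change was -0.62 for v-Src (standard error 0.08) and -0.80 for STAT3-C (standard error 0.10), with no overlap with the control arrays. Without v-Src replicate 1 the first was -0.58, under the fold threshold.

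Zmat3, an RNA-binding zinc finger protein that p53 induces, was higher with STAT3-C (10.53, 10.77 and 10.53) than in control cells (9.83, 9.94 and 9.85), a rise of 0.74 (log2, standard error 0.10, adjusted p = 0.00098). With v-Src it had 0.47, with adjusted p = 0.00873 but under the fold threshold, and the lines did not differ past the test (-0.27, adjusted p = 0.121). Aen, a nuclease of apoptotic DNA fragmentation, rose in both lines at 1450506_a_at (0.85 and 1.14, standard errors 0.14 and 0.11) but not at its other 3 probesets, which had -0.06 and -0.02 at 1423957_at, -0.04 and -0.41 at 1437373_at and 0.47 and 0.11 at 1451186_at. Trp53inp1, which promotes p53 activity and autophagy, had -0.01 and -0.02 at 1416926_at. At 1416927_at it had 0.84 with v-Src (adjusted p = 0.0173), a call lost without v-Src replicate 5 (0.78) or 6 (0.68) or control replicate 1 (0.80) or 2 (0.81), and 0.11 with STAT3-C. The direct difference there was 0.73 (adjusted p = 0.0498), a call lost without v-Src replicate 5 (0.67) or 6 (0.57), and also without STAT3-C replicate 1 (0.84), 2 (0.76) or 3 (0.59). Ei24, an endoplasmic reticulum protein that p53 induces, had -0.26 and 0.13.

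The sestrins, stress proteins that inhibit mTORC1, moved apart with v-Src. Sesn2 at 1425139_at lay at 8.15, 8.20 and 8.16 in control cells, at 9.86, 10.25 and 9.66 in v-Src cells and at 8.44, 8.40 and 9.08 in STAT3-C cells. It rose 3.36-fold with v-Src (log2 1.75, standard error 0.15, adjusted p = 0.000198), had 0.47 with STAT3-C (standard error 0.18, adjusted p = 0.0809) and exceeded the STAT3-C level in v-Src cells by 1.28 (standard error 0.22, adjusted p = 0.00689). Its other probeset, 1451599_at, had -0.32 and -0.31 and did not pass, so these calls rest on 1 of 2 probesets.

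Sesn1 at 1433711_s_at lay at 9.02, 8.25 and 9.02 in control cells, at 7.43, 6.90 and 7.24 in v-Src cells and at 7.78, 8.23 and 7.65 in STAT3-C cells. It fell by 1.57 with v-Src (standard error 0.23, adjusted p = 0.00249), and probesets 1438931_s_at and 1454699_at had -2.20 and -1.81, both past the test, with v-Src levels between 4.52 and 5.56. With STAT3-C the first fell by 0.88 (standard error 0.23, adjusted p = 0.0237) and the others had 0.24 and -0.77, not past the test. The call with STAT3-C was lost without control replicate 1 (-0.75) or 3 (-0.75) or STAT3-C replicate 1 (-0.82) or 3 (-0.76), while the calls with v-Src passed with each of the 6 arrays left out in turn. In the direct comparison 1433711_s_at had -0.70 (adjusted p = 0.0363), a call lost without v-Src replicate 5 (-0.55) or 6 (-0.72), and also without STAT3-C replicate 1 (-0.75) or 2 (-0.52), and 1438931_s_at had -2.44 (adjusted p = 0.0101), a call lost without STAT3-C replicate 1 (-2.32). With all 9 arrays in 1 fit the direct call of 1433711_s_at was lost too (adjusted p = 0.0592). At 1454699_at the direct difference was -1.04 and did not pass, except without STAT3-C replicate 3 (-1.50) or by significance analysis of microarrays. A further probeset, 1444376_at, lay between 4.25 and 4.90 in all arrays. On the mean of all Sesn1 probesets the change with STAT3-C was -0.39 and did not pass (adjusted p = 0.302). Cd82, a tetraspanin that suppresses metastasis, had 0.02 in both lines at 1449611_at, and at 1416401_at it had 0.63 with v-Src (adjusted p = 0.00628) and 0.47 with STAT3-C, of which the first passed, though not without v-Src replicate 6 (0.55) or control replicate 1 (0.54).

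Genes of nucleotide excision repair moved in both directions. Ddb2, the damage sensor that binds ultraviolet lesions, was raised with STAT3-C alone. At 1425706_a_at it lay at 7.53, 7.70 and 7.06 in STAT3-C cells, at 6.36, 6.54 and 6.25 in control cells and at 6.44, 6.39 and 6.54 in v-Src cells. The STAT3-C arrays lay above all others (1.05 against control, standard error 0.17, adjusted p = 0.00222), and v-Src cells had a log2 difference of -0.97 from them (standard error 0.16, adjusted p = 0.00604). The second Ddb2 probeset, 1436680_s_at, had the same calls, with 0.80 for STAT3-C against control and -1.20 for v-Src against STAT3-C, and with v-Src it had -0.41, under the fold threshold.

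Xpc, which recognizes the damage ahead of excision, was lower with STAT3-C (6.94, 6.80 and 6.35) than in control cells (7.54, 7.93 and 7.27), by a log2 fold change of -0.88 (standard error 0.20, adjusted p = 0.0119), and had -0.29 with v-Src. In the direct comparison it had 0.59 (adjusted p = 0.0335), a call lost without v-Src replicate 1 (0.55), 5 (0.65) or 6 (0.59), and also without STAT3-C replicate 2 (0.65) or 3 (0.42). Ercc5, which encodes the XPG endonuclease, lay at 8.39, 8.22 and 8.63 in control cells, at 7.42, 7.34 and 7.58 in v-Src cells and at 7.44, 7.58 and 7.18 in STAT3-C cells at 1450935_at. It fell by 0.97 and 1.02 (standard errors 0.12 and 0.14, adjusted p = 0.0012 and 0.0011). The other Ercc5 probeset, 1457713_at, lay below the lower quartile in control cells (3.78, 3.86 and 3.59) and in STAT3-C cells by its mean (5.49, 4.40 and 4.53), and just above it in v-Src cells (5.27, 5.14 and 5.48). It passed as higher in both lines (1.55 and 1.06, differences near background), and the second did not pass without control replicate 1 (1.08) or 3 (0.99). Between the lines it had 0.49 and did not pass, except without STAT3-C replicate 1 (0.83). The Ercc5 probesets thus have opposite calls, of which those of 1457713_at rest on levels near background.

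Polk, a translesion DNA polymerase, had -0.22 with v-Src at 1449483_at and -0.66 with STAT3-C (standard error 0.17, adjusted p = 0.0213). The second passed, but not without control replicate 1 (-0.50) or 3 (-0.61) or STAT3-C replicate 1 (-0.64), 2 (-0.66) or 3 (-0.68). The other Polk probeset had 0.05 and -0.17, and on the mean of both the change with STAT3-C was -0.42, under the fold threshold. Rrm2b, the p53-induced subunit of ribonucleotide reductase, had 0.06 and 0.15 at 1433773_at, where it lay between 8.03 and 8.54 in all arrays, and 0.48 and 0.31 at 1437476_at, of which the first passed without v-Src replicate 1 (0.69). Its probesets 1437221_at and 1437222_x_at lay below the lower quartile in every array, so that their differences carry no size, with 1.00 and 0.81 with v-Src, both past the test, and 0.56 and 0.63 with STAT3-C, of which the second passed, though not without control replicate 1 (0.55) or 3 (0.64) or STAT3-C replicate 3 (0.45). The first passed with STAT3-C without control replicate 3 (0.62), and between the lines without v-Src replicate 1 (0.63).

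**Figure D3:**
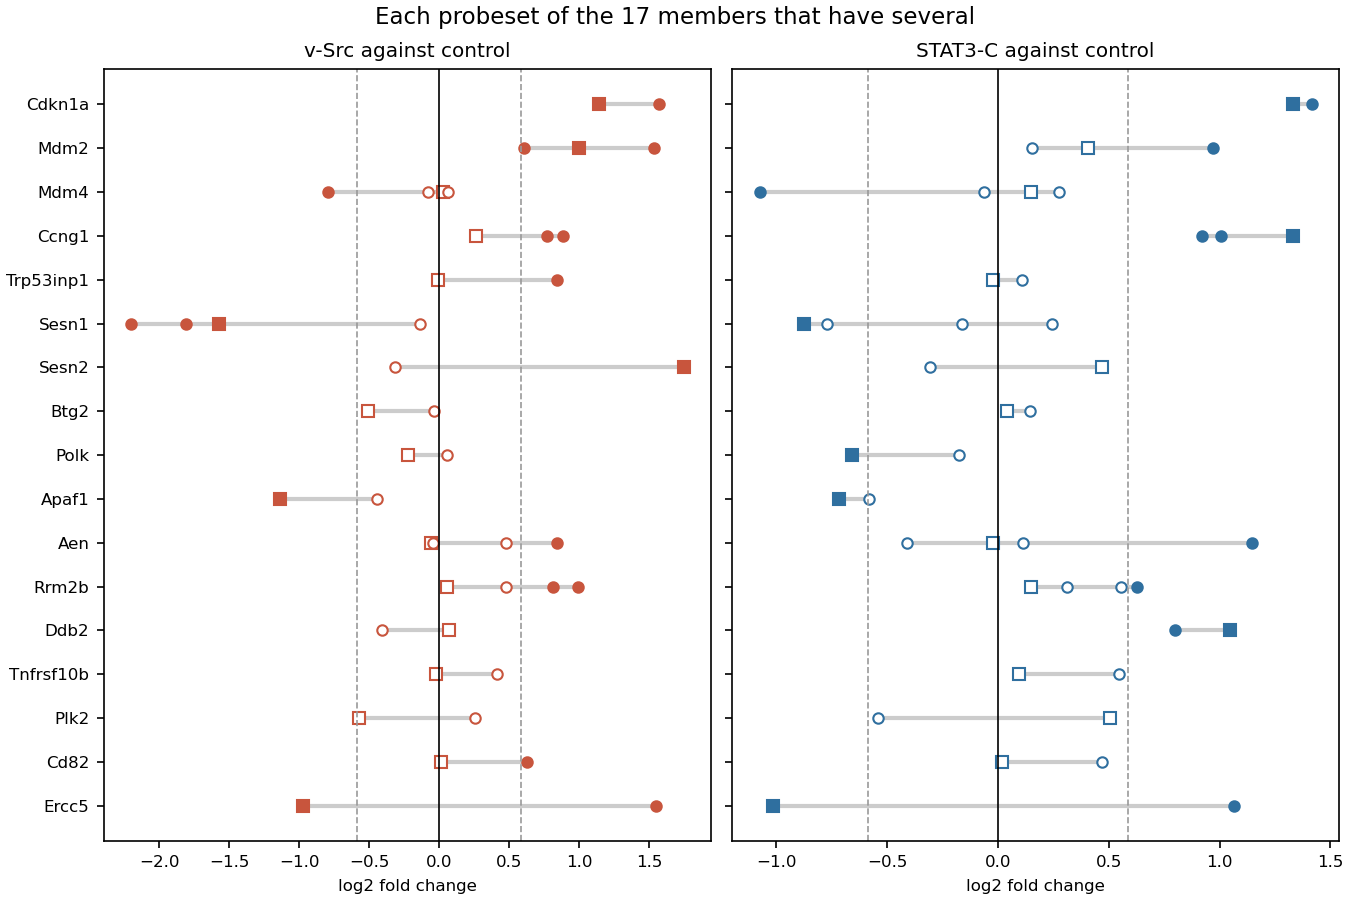
Log2 fold change against control (horizontal axes) of every probeset of the 17 members with several probesets (vertical axis), with v-Src on the left and STAT3-C on the right, each on its own scale. Squares stand for the gene, circles are its other probesets, filled symbols passed the test, grey bars span the probesets of a gene and dashed lines mark a fold of 1.5; Ercc5 has filled symbols on both sides of 0 in both panels, the higher of them from a probeset near background in control cells.

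The probesets of a gene were often split. Of all 56 member probesets, 16 rose and 9 fell with v-Src (background 8.75% and 8.1% of 45037 probesets), and 13 rose and 9 fell with STAT3-C (background 9.68% and 8.58%). Between the lines, 8 were higher and 7 lower with v-Src (background 4.99% and 5.33%). Of the 17 genes with several probesets, all probesets had the same call in 7 genes with v-Src and in 9 with STAT3-C. Among these, every probeset passed only for Cdkn1a and Mdm2 with v-Src and for Cdkn1a, Ccng1 and Ddb2 with STAT3-C. In the rest no probeset passed. The same shares over all genes with several probesets were not computed. Ercc5 was the 1 gene with calls in opposite directions in each, and Plk2 was the 1 such gene in the direct comparison.

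The Cdkn2 genes are neighbours on mouse chromosome 4 and were read by 1 probeset each. Cdkn2b, which encodes p15Ink4b, lay at 9.44, 9.42 and 9.07 in control cells, at 8.26, 8.07 and 8.62 in v-Src cells and at 8.46, 8.45 and 7.88 in STAT3-C cells. All arrays of the transfected lines lay below those of control cells, with log2 fold changes of -0.99 for v-Src (standard error 0.16, adjusted p = 0.00394) and -1.05 for STAT3-C (standard error 0.18, adjusted p = 0.00304). Cdkn2a lay at 6.57, 6.65 and 6.85 in control cells, at 7.05, 6.41 and 6.97 in v-Src cells and at 5.61, 5.95 and 5.92 in STAT3-C cells. The v-Src arrays overlapped those of the control (0.12, standard error 0.18, adjusted p = 0.648), while the STAT3-C arrays lay below both other lines (-0.86 against control, standard error 0.13, adjusted p = 0.00142, and 0.99 for v-Src against STAT3-C, standard error 0.18, adjusted p = 0.00949). Its probeset, 1450140_a_at, carries the suffix for transcripts of 1 gene, so p16Ink4a and p19Arf transcripts are not separated here.

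None of the 6 measured genes around them passed as lower against control. Calls of this kind were also uncommon among all genes, at 10.4% (v-Src) and 10.3% (STAT3-C). With so few genes, their absence does not set the neighbours apart from all genes. By the brightest probeset, 2 of the 6 passed as higher in each line (33.3%), where all genes had 9.54% (v-Src) and 11.9% (STAT3-C). Whether the falls are particular to the Cdkn2 genes was not tested. In chromosomal order the measured genes were Focad, Hacd4, Klhl9, Mtap, Cdkn2a, Cdkn2b, Dmrta1 and Elavl2. Hacd4, a dehydratase of fatty acid elongation, lay at 7.50, 7.21 and 7.92 in control cells, at 9.41, 9.52 and 9.60 in v-Src cells and at 9.87, 9.87 and 9.90 in STAT3-C cells. It rose by 1.97 (standard error 0.17) and 2.33 (standard error 0.17). Focad, a focal adhesion protein, rose by 0.64 and 0.70, the first lost without v-Src replicate 1 (0.55) or control replicate 3 (0.58), and Klhl9, an adapter of a ubiquitin ligase, had 0.42 in both lines, under the fold threshold. Mtap, the methylthioadenosine phosphorylase next to Cdkn2a, was split: 1424425_a_at had 0.13 and -0.22 and 1424426_at had -0.02 and -0.27, while 1451345_at rose by 0.77 and 1.28 and 1451346_at had 0.40 and rose by 0.88. Dmrta1, a transcription factor of the DMRT family, lay between 3.70 and 4.02 in all arrays, below the lower quartile. Elavl2, a neuronal RNA-binding protein, had 0.44 and 0.11 at 1433052_at and did not pass, and neither did 1454454_at (0.47 and 0.08). It rose in both lines at 1421882_a_at (1.54 and 1.03) and 1421883_at (1.69 and 1.49), with control levels of 4.64 to 5.46 near background, and at 1421881_a_at it had 1.11 (past the test) and 0.44.

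**Figure D4:**
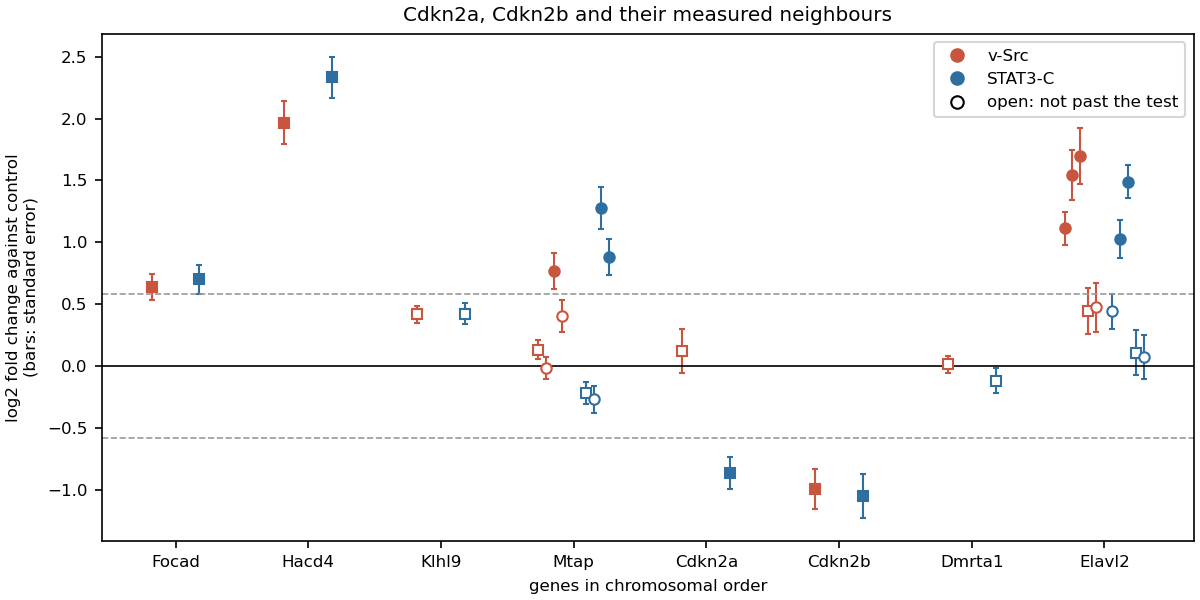
Log2 fold change against control cells (vertical axis, bars for the standard error from limma) of Cdkn2a, Cdkn2b and the measured genes around them in chromosomal order (horizontal axis, not to scale), with v-Src (red) and STAT3-C (blue). Squares stand for the gene and circles are other probesets, filled where the test was passed, and dashed lines mark a fold of 1.5; Cdkn2b is low in both lines, Cdkn2a in STAT3-C cells, and Hacd4 has 1.97 and 2.33.

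Compared directly, v-Src and STAT3-C cells differed in 11 of the 29 genes, 6 higher (20.7%) and 5 lower (17.2%) in v-Src cells, against 4.84% and 6.83% of all genes. Higher in v-Src cells were Sesn2, Cdkn2a, Gadd45a, Plk3, Mdm2 and Xpc, and higher in STAT3-C cells were Fas, Plk2, Ccng1, Ddb2 and Sesn1. The first count was 3 without v-Src replicate 6 or without STAT3-C replicate 2. Cdkn1a, Perp, Cdkn2b, Ercc5, Apaf1 and Phlda3, which had changed in both lines, did not pass in this comparison. The methods describe the control arrays as normalized once with each transfected line, and whether the deposited v-Src and STAT3-C columns were normalized together is not given in the sources used here. After all 9 columns were quantile normalized again, 5 members were higher and 5 lower.

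Other genes of the pathway were examined as lists, each gene by its brightest probeset alone. Whether their other probesets had the same changes was not examined. Of 19 further p53 targets measured, 4 rose (21.1%) and 2 fell (10.5%) with v-Src, beside 9.54% and 10.4% of all genes. With STAT3-C 1 rose and 1 fell (5.26% each), beside 11.9% and 10.3% of all genes. The median log2 fold change of the list was 0.12 with v-Src and 0.09 with STAT3-C. Pmaip1, which encodes the BH3-only protein Noxa, lay at 3.79, 4.08 and 4.06 in control cells, below the lower quartile of the arrays, at 8.48, 8.80 and 8.97 in v-Src cells and at 9.52, 9.90 and 9.53 in STAT3-C cells. It passed as higher in both lines, with no size given because the control level is near background, and the log2 difference of v-Src from STAT3-C cells was -0.90. Pml, the organizer of nuclear bodies, had -0.96 (standard error 0.08) and -1.83 (standard error 0.12), both past the test, and the lines differed by 0.87 (standard error 0.10, adjusted p = 0.00193). Sesn3, the third sestrin, rose by 1.19 with v-Src, a call lost without v-Src replicate 1 (1.11) or control replicate 3 (1.19), and Ddit4, an inhibitor of mTORC1, rose by 0.89.

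Of 21 regulators of p53 and of DNA damage signaling, 2 rose (9.52%) and 4 fell (19.0%) with v-Src, beside 9.54% and 10.4% of all genes. With STAT3-C 3 rose (14.3%) and 4 fell (19.0%), beside 11.9% and 10.3% of all genes. The median log2 fold change of the list was -0.12 with v-Src and -0.11 with STAT3-C. Kat5, the acetyltransferase Tip60, rose by 0.95 (standard error 0.10) and 1.53 (standard error 0.10). Cop1, a ubiquitin ligase that targets p53, lay at 10.67, 10.70 and 10.85 in control cells and at 9.62, 9.67 and 9.44 in STAT3-C cells, a fall by 1.16 (standard error 0.10, adjusted p = 0.000106), and with v-Src it had -0.56, under the fold threshold. The lines differed by 0.60, a call lost without v-Src replicate 6 (0.54) or STAT3-C replicate 3 (0.53). Ppp1r13b, which encodes the p53 cofactor ASPP1, rose by 0.79 with STAT3-C alone and differed by -0.63 between the lines, a call lost without v-Src replicate 5 (-0.53). Rad50, of the complex that binds DNA breaks, had -0.87 and -0.93, and Daxx, which recruits the deubiquitinase of Mdm2, -0.88 and -0.83, all past the test. Crebbp, a coactivator of p53, fell by 0.90 with v-Src. H2ax, the histone phosphorylated at breaks, had -0.99 and -0.92, both past the test, and the first was lost without v-Src replicate 1 (-0.89) or 6 (-0.75) or control replicate 1 (-1.07), 2 (-1.06) or 3 (-0.85).

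Of 22 other CDK inhibitors and genes of the RB pathway, 5 rose (22.7%) and 6 fell (27.3%) with v-Src, beside 9.54% and 10.4% of all genes. With STAT3-C 3 rose (13.6%) and 4 fell (18.2%), beside 11.9% and 10.3% of all genes. The median log2 fold change of the list was -0.23 with v-Src and -0.16 with STAT3-C. Rbl2, the retinoblastoma-like protein p130, lay at 8.40, 8.61 and 8.49 in control cells, at 6.48, 5.98 and 6.53 in v-Src cells and at 6.83, 6.75 and 6.49 in STAT3-C cells. It had -2.17 and -1.81, both past the test, while Rb1 rose by 1.03 and 1.05, and Ccnd1, which encodes cyclin D1, by 1.03 and 1.20. Cdkn1b, which encodes the CDK inhibitor p27, fell by 1.22 with v-Src alone (standard error 0.17, adjusted p = 0.00201), and was lower with v-Src between the lines too (-1.39, standard error 0.21, adjusted p = 0.00446). Cdk2, its kinase target, fell by 1.24 with v-Src (standard error 0.08). Cdkn2d, the INK4 gene of p19Ink4d, rose by 0.85 with v-Src alone and differed by 1.02 between the lines (standard error 0.15, adjusted p = 0.00409). Cdkn3, a phosphatase of cyclin-dependent kinases, rose by 1.61 (standard error 0.32) and 2.74 (standard error 0.20). Between the lines Cdkn3 had -1.13, a call lost without v-Src replicate 1 (-1.06) or STAT3-C replicate 1 (-1.08), 2 (-1.16) or 3 (-1.14), and Cdk2 had -0.87.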

How the data were processed

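The authors hybridized RNA to Affymetrix whole-genome mouse arrays and deposited log2 expression values made by robust multiarray averaging (RMA), which corrects background, normalizes quantiles and summarizes probes. Control arrays were normalized once with each transfected line per the methods, and which run the deposited columns come from is not given in the sources used here. Files of single probes were not used here, so signal over background is known only from the RMA level. Probesets were named from the platform annotation: 34945 have 1 symbol, 932 several and 9160 none, and 64 control probesets were left out. Groups came from the sample labels. Each comparison was fitted on its 6 arrays with limma 3.58.1 (R 4.3.3), checked on simulated data first. Precision is limited by 3 arrays a line: the smallest p of an exact two-sided permutation test of 1 gene is 0.1, while limma shares the spread over all probesets. Alternatives were another normalization, filter, threshold, test, summary of probesets and each array left out. Every member is named. Of the other lists, up to 4 passing genes with the largest changes in each comparison are named, and all neighbours of the locus. Members and lists were chosen with earlier results of these data known. The gene of p53 itself is not reported here. The STAT3-C and control labels share replicate numbers 1 to 3, but same-numbered arrays did not deviate together.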

Additional observations from a re-analysis of the deposited data

Results flagged for a closer look

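The v-Src and STAT3-C cells differed in 11 members by the direct limma test of 3 against 3 arrays. The log2 differences, v-Src minus STAT3-C, were 0.59 for Mdm2 (adjusted p = 0.00963), 1.28 for Sesn2 (adjusted p = 0.00689), 0.78 for Gadd45a (adjusted p = 0.0344), 0.59 for Xpc (adjusted p = 0.0335), 0.69 for Plk3 (adjusted p = 0.00411) and 0.99 for Cdkn2a (adjusted p = 0.00949). They were -1.07 for Ccng1 (adjusted p = 0.00411), -0.70 for Sesn1 (adjusted p = 0.0363), -1.18 for Fas (adjusted p = 0.00218), -0.97 for Ddb2 (adjusted p = 0.00604) and -1.08 for Plk2 (adjusted p = 0.00173). The calls of Fas, Ddb2, Plk3, Cdkn2a, Sesn2, Ccng1 and Plk2 passed with each of the 6 arrays left out in turn, while those of Mdm2, Gadd45a, Xpc and Sesn1 did not. Other probesets did not bear out all of these. Plk2 had the opposite call at 1443780_at (0.80, adjusted p = 0.0022). The probesets 1450016_at and 1450017_at of Ccng1 did not pass (-0.12 and -0.15), nor did 1451599_at of Sesn2 (-0.01). Neither did 1427718_a_at and 1457929_at of Mdm2 (0.57 and 0.46) or 1454699_at and 1444376_at of Sesn1 (-1.04 and 0.02). On the mean of all probesets of the gene, Plk2 (-0.14), Ccng1 (-0.45) and Mdm2 (0.54) did not pass.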

How the results depend on the processing

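Of 2633 values recomputed under the alternatives, 2466 kept their call, 118 no longer passed and 47 newly passed. A further 2 no longer passed and also changed sign. Among the 2466, 86 values that passed under neither setting changed sign. The 2 calls lost with a change of sign were both of Ercc5, whose probesets have opposite calls. It had 0.29 with v-Src and 0.024 with STAT3-C when all probesets of a gene were averaged, neither past the test. A fold of at least 2 left 3 members lower with v-Src, 2 lower with STAT3-C, and 1 higher and 3 lower in v-Src than STAT3-C cells. An adjusted p under 0.01 left 5 lower with STAT3-C. Averaging probesets left 5 lower with STAT3-C and 3 lower in the direct comparison. With each array left out, members higher numbered 5 to 5 with v-Src, 5 to 6 with STAT3-C and 3 to 5 in the direct comparison, and members lower 5 to 7, 6 to 8 and 4 to 5. With the replicate number as a block, STAT3-C against control had 5 higher and 8 lower members, the counts without it. Deviations of same-numbered arrays from their line means correlated at -0.09, 0.06 and 0.04, within the range of other pairs (-0.11 to 0.07). No shared deviation was seen, but with 3 arrays a line this cannot tell whether same-numbered arrays were handled together. The v-Src arrays share too few numbers for a block. Scaling again moved the median of all probesets by under 0.1 on the log2 scale. It also changed some calls near a threshold. With each array centred at its median, the direct calls of Xpc and of Mdm2 at 1423605_a_at were lost (0.57 each). The v-Src calls of Ccng1 at 1450016_at and 1450017_at were lost too (0.81 and 0.71). Sfn (-0.62) and Plk2 at 1427005_at (-0.64) then passed as lower with v-Src. Passages of 1 line per transgene, a control without vector and probesets that disagree within a gene limit these comparisons.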
